A study of Mus musculus with 9 samples.

Results

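The early response to GATA1 in the mouse line G1E-ER4 was read as the difference between 13 h of estradiol and no estradiol, in 5 of the 9 deposited libraries. Members were chosen by label alone: the 2 libraries labelled with 13 h in 100 nM estradiol (label numbers 1502 and 1663, replicates 1 and 2) against the 3 labelled as untreated (1501, 1662 and 1866, replicates 1 to 3, called 0 h). All 5 carry the same genotype, G1E cells that express a fusion of GATA1 to an oestrogen receptor that estradiol binds (GATA1-ER), and all were grown with epoetin and with medium conditioned by cells that secrete kit ligand. The other 4 libraries (G1E and 24 h, n = 2 each) entered only the filter, the scaling and the estimate of the spread. PRO-seq labels nascent RNA on engaged RNA polymerase, and reads were counted in gene bodies and in dREG peaks, sites of transcription initiation that dREG finds at gene starts and at enhancers. The labels do not say whether replicates came from separate cultures, so each p-value measures only the spread between these libraries, which may be technical. The labels describe plating in fresh medium for the estradiol cultures, and whether the untreated cells were plated anew is not stated, so estradiol and fresh medium cannot be told apart.

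GATA1 is the zinc finger factor that commits blood progenitors to red cells and megakaryocytes. G1E cells derive from mouse embryonic stem cells without working GATA1 and keep dividing as immature progenitors. Estradiol switches the fusion protein on in G1E-ER4, after which the cells mature along the red cell path and stop dividing. GATA1 binds GATA motifs, takes over sites that GATA2 held, and acts as an activator at some genes and a repressor at others. G1E-ER4 is 1 derived line, so all values are of that line. Reads over Gata1 cannot be assigned to the fusion or to the disrupted gene. Gata1 was read at 257, 188 and 198 CPM at 0 h and 280.1 and 214 CPM at 13 h, with overlapping groups (0.20 ± 0.18, adjusted p = 0.384). The human or mouse origin of the receptor part is not given, and mouse Esr1 was read at 28.9996, 11.97 and 11.4 CPM at 0 h and 22.8 and 12.2 CPM at 13 h, with overlapping groups as well (0.00 ± 0.43, adjusted p = 1.00). Both genes were highest in replicate 1 of each group. These values check neither label, since both groups carry the fusion.

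Gene-body reads summed to between 70703867 and 139945759 in the 5 libraries, and reads in dREG peaks to between 32246442 and 59952454. Levels below are CPM (counts per 1e6 reads after TMM scaling), always in replicate order. A value after a gene is the log2 fold change of 13 h over 0 h ± its standard error (SE). The SE is approximate, calculated back as the size of the change over the square root of the test's F statistic. A gene is called, or said to rise or fall, where edgeR's quasi-likelihood test gave a Benjamini-Hochberg adjusted p under 0.05. Most red cell markers rose. The 15 on the list summed to between 1016.5 and 1256 CPM at 0 h and to 2625 to 3152 CPM at 13 h. Of these, 10 rose (66.7%, against 20.1% of all tested genes), 0 fell and 5 were not called. A log2 fold change below 0 was found for 2 of the 15, and 2 stayed below 1 CPM in all 5 libraries. The 14 mast cell and basophil markers summed to 96.7 to 140.2 CPM at 0 h and to 4.83 and 8.32 CPM at 13 h. Of the 8 tested, 6 fell (75%, against 20.9% of all tested genes). These sums rest on few genes, since 10 of the 14 stayed below 1 CPM in all 5 libraries. Mcpt4, Mcpt8 and Mrgprb2 had 0 reads in all 5. The 17 megakaryocyte markers summed to 182 to 206 CPM at 0 h and to 216 and 229.6 CPM at 13 h, and 10 of the 17 stayed below 1 CPM in all 5 libraries. Of the 11 tested, 3 rose and 2 fell (27.3% and 18.2%, against 20.1% and 20.9% of all tested genes). Markers of granulocytes and monocytes summed to at most 7.79 CPM, those of lymphocytes to at most 3.13 CPM and those of stroma to at most 7.63 CPM in every library, and S100a8, S100a9, Cebpa and Irf8 were listed at 0 reads in all 5. A 0 in this table does not show that a gene is silent, since Insig1, which holds SREBP back in most cells, had only 1 read over the 5 libraries. Cells were measured in bulk, so fewer cells of a kind and less RNA per cell cannot be told apart. The part of the mast cell genes' fall in the results below was not tested.

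At 13 h 2782 of 13825 tested genes rose (20.1%) and 2888 fell (20.9%), so that 41.0% were called. Called or not, the groups did not overlap with 13 h higher in 30.3% of tested genes and with 13 h lower in 31.9%. Most calls were of moderate size. Of the genes that rose, 903 rose by 1 to 2 on the log2 scale, 455 by 2 to 4 and 106 by more than 4, and of those that fell, 986, 483 and 122 did so. The replicates of 13 h were not equally far from 0 h. Replicate 1 was the further one for 1645 of the 2782 genes that rose and for 1861 of the 2888 that fell. Without it, 1709 genes fell, and without replicate 2, 2395 did.

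Promoter sequences are shown for 4 genes of the lists below, the pair with the largest rise and the pair with the largest fall among those whose window held a GATA motif. Windows on a chromosome that was set aside were left out of this choice. RefSeq windows from 250 bases before to 50 bases after each gene's start (build GRCm38.p6) were searched on both strands. The motifs were AGATAA and its variants with G at the end (AGATAG), with T at the start (TGATAA) or with both changes (TGATAG). Each sequence is given 5′ to 3′ on the gene's strand with the match in capitals. The window of Slc38a5, an amino acid transporter, lies at chrX:8271131-8271430 (+), and that of Bach1, a repressor that haem inactivates, at chr16:87698704-87699003 (+). The window of Slc7a11, the cystine importer, lies at chr3:50443564-50443863 (-), and that of Bid, a killer protein of the BCL2 family, at chr6:120916775-120917074 (-), where CTATCA is TGATAG on the other strand.

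Slc38a5: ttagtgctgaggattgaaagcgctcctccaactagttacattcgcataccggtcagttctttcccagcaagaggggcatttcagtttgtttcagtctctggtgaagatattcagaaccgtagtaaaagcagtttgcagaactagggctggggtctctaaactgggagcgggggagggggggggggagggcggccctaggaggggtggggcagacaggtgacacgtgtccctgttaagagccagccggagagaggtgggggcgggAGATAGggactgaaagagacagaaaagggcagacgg
Bach1: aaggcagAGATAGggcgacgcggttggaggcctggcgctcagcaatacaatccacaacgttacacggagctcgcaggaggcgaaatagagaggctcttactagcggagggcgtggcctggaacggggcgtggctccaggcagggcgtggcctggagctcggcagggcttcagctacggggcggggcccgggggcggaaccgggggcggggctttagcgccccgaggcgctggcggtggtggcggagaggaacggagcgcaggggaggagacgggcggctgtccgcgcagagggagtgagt
Slc7a11: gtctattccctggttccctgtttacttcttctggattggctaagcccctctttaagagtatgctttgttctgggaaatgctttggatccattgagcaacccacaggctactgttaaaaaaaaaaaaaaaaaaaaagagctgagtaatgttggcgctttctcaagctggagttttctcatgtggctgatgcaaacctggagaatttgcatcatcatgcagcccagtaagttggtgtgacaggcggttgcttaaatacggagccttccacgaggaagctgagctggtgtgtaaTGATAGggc
Bid: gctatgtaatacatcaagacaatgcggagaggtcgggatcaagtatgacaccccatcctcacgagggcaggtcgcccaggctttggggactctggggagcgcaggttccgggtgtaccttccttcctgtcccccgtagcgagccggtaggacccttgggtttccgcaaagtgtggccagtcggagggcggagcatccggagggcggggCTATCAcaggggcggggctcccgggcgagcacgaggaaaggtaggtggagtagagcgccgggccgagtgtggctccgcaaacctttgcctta

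The start elements of these 4 genes moved with the gene bodies. In the deposited peak table, whose coordinates are mm9, the start peak of Slc38a5 (chromosome X, 7847750 to 7850951) was read at 0.696, 0.249 and 0.208 CPM at 0 h and 47.6 and 54.1 CPM at 13 h (7.07 ± 0.40, adjusted p = 1.14e-07). The start peak of Bach1 (chromosome 16, 87696900 to 87701751) was read at 38.8, 68.1 and 40.04 CPM at 0 h and 235 and 450.5 CPM at 13 h (2.81 ± 0.29, adjusted p = 1.39e-05). The start peak of Slc7a11 (chromosome 3, 50246150 to 50248551) was read at 13.1, 10.1 and 11.3 CPM at 0 h and 1.53 and 1.65 CPM at 13 h (-2.85 ± 0.33, adjusted p = 2.91e-05). At Bid only the strand that points into the gene fell (chromosome 6, 120863550 to 120868401), with 136, 102 and 120.1 CPM at 0 h and 37.4 and 41.4 CPM at 13 h (-1.60 ± 0.21, adjusted p = 7.63e-05). Its other strand had 16.4, 18.3 and 16.3 CPM at 0 h and 19.2 and 15.7 CPM at 13 h (0.04 ± 0.27, adjusted p = 0.936). All 4 start peaks thus changed in the direction of the gene, with no overlap of the groups. A match of these motifs was common in windows of every kind. A gene was counted where any of its windows held a match. It was found in 25.27% of the 2165 genes that rose and had a window, 21.5% of the 2191 that fell and 23.29% of the 6152 not called. Over all 27025 genes with a window, tested or not, the share was 33.04%. Counted by window it was 29.76% of 32851. A match describes letters, not a bound site.

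The genes described next belong to 27 lists of pathways and families, with 639 genes, of which 595 were tested. Over these, 114 rose (19.2%) and 172 fell (28.9%), with a median of -0.17 against -0.02 over all tested genes. For each list the values by library are given for at most 2 genes each way, those with the largest change among called members whose groups do not overlap, so that the separation of their groups follows from the choice. Rpl5, Rpl11, Rpl19, Pkm, Gapdh, Sqle, Fdft1 and the members named though not called fall outside that rule and were chosen after their values were seen. Of 329 called genes that these lists or the rules further on could name, 201 kept their call in every alternative fit and 0 changed direction, while 109 lost it without 13 h replicate 1 and 52 without 13 h replicate 2. Counts of a list are to be read against the shares over all tested genes, 20.1% up and 20.9% down.

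**Figure D1:**
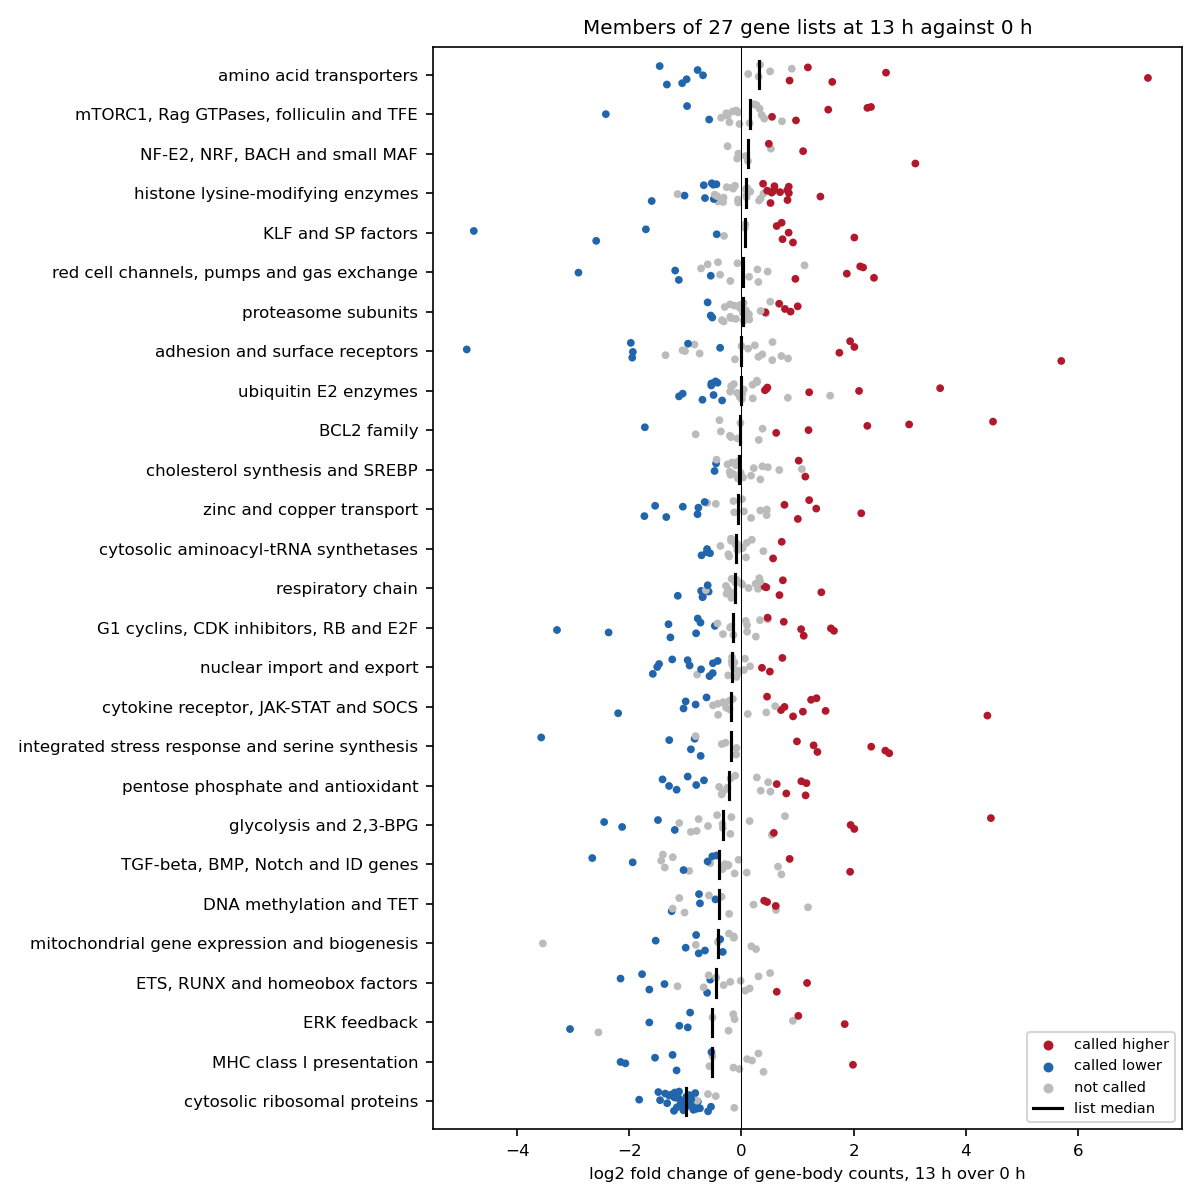
Log2 fold change of gene-body counts, 13 h over 0 h (horizontal axis), for the tested members of 27 gene lists (rows). Each point is a gene, red where it rose, blue where it fell and grey where it was not called, and the black bar is the list's median. The cytosolic ribosomal proteins stand at the bottom with a median of -0.98 and 36 blue points of 40, while most lists hold members on both sides of 0.

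Genes for ribosomal proteins fell almost throughout. Of the 40 cytosolic ribosomal protein genes tested, 36 fell and 0 rose (90.0%, against 20.9% of all genes), with a median of -0.98. Rpl5, of the large subunit, was read at 189.7, 192 and 229 CPM at 0 h and 68.8 and 93.7 CPM at 13 h (-1.33 ± 0.17, adjusted p = 0.000244). Rpl11, its partner in the 5S particle, was read at 65.9, 68.2 and 77.8 CPM at 0 h and 31.1 and 30.2 CPM at 13 h (-1.20 ± 0.15, adjusted p = 0.000231). Rpl19 was among the 4 not called, at 70.6, 59.2 and 67.7 CPM at 0 h and 58.95 and 61.5 CPM at 13 h (-0.13 ± 0.14, adjusted p = 0.486). In 38 of the 40 genes replicate 1 of 13 h was lower than replicate 2, and the list's median below the 0 h mean was -1.28 in replicate 1 and -0.71 in replicate 2. Without replicate 1, 19 of the 40 fell, while the calls of Rpl5 and Rpl11 were kept whichever library was left out. At the 17 start elements that belong to these genes, 13 fell and 0 rose, with a median of -0.90. Over all elements at gene starts, both strands counted, 13.4% fell, and over whole peaks at starts 17.7%. Element and body may share reads, so the elements are not separate support. Ribosomal protein genes have many near-identical copies in the genome, and how reads with several matches were counted is not given in the sources used here.

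Falls also outnumbered rises among genes that serve the expression of mitochondrial DNA and among carriers of nuclear transport. Of 15 genes of mitochondrial gene expression and biogenesis, 0 rose and 7 fell (46.7% down, median -0.42). Pprc1, a coactivator of nuclear genes for mitochondria, was read at 185, 165 and 176 CPM at 0 h and 50.5 and 70.8 CPM at 13 h (-1.53 ± 0.28, adjusted p = 0.00174). Peo1, the helicase that unwinds mitochondrial DNA, stood at 30.5, 29.5 and 32.5 CPM at 0 h and 12.5 and 18.4 CPM at 13 h (-0.995 ± 0.20, adjusted p = 0.00290). Tsfm, a translation factor of mitochondria, fell as well (-0.81 ± 0.16). Of 27 genes of nuclear import and export, 3 rose and 11 fell (40.7% down). Ipo5, an importin that carries ribosomal proteins among its cargo, was read at 352, 343 and 382 CPM at 0 h and 114 and 126 CPM at 13 h (-1.58 ± 0.15, adjusted p = 5.43e-05). Kpnb1, the main importin beta, had 400.2, 427 and 412 CPM at 0 h and 126 and 165 CPM at 13 h (-1.503 ± 0.14, adjusted p = 4.51e-05). Rcc1, the exchange factor that charges Ran (-1.47 ± 0.21), Ran itself (-0.93 ± 0.18) and Xpo5, the exporter of microRNA precursors (-1.24 ± 0.21), fell too. Against these, Xpo7, an exporter known for its part in the loss of nuclear histones in red cells, was read at 185, 186 and 183 CPM at 0 h and 284 and 329 CPM at 13 h (0.73 ± 0.11, adjusted p = 0.000556). Ipo9, an importer of histones, was read at 156, 164 and 164 CPM at 0 h and 239 and 219.8 CPM at 13 h (0.51 ± 0.11, adjusted p = 0.00409). Both groups of Xpo7 and Ipo9 lay apart, with 13 h higher. Their elements did not follow: of 3 at or in Xpo7 and 2 at Ipo9, 0 rose and 0 fell. At the 25 start elements of the nuclear transport genes, 0 rose and 8 fell. The nuclear transport list kept 11 of the 14 calls whichever library was left out, and the mitochondrial list 3 of the 7 calls.

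Of 20 aminoacyl-tRNA synthetases of the cytosol, which load amino acids onto tRNA, 2 rose and 4 fell, the falls at about the share of all genes (20.9%). At 14 start elements of these genes, 1 rose and 0 fell. Tars was read at 44.8, 56.6 and 59.5 CPM at 0 h and 92.1 and 84.4 CPM at 13 h (0.72 ± 0.15, adjusted p = 0.00395). Aars stood at 175, 177 and 178 CPM at 0 h and 254 and 268 CPM at 13 h (0.56 ± 0.12, adjusted p = 0.00355). Eprs was read at 309, 302 and 322 CPM at 0 h and 188 and 192 CPM at 13 h (-0.71 ± 0.11, adjusted p = 0.000844). Gars had 209.6, 197 and 219 CPM at 0 h and 135 and 137 CPM at 13 h (-0.62 ± 0.16, adjusted p = 0.0111). Each of the 4 moved by less than 1 on the log2 scale, and Gars was not called without 13 h replicate 1 (-0.59, adjusted p = 0.0691). Farsb and Kars were not called there either, so that 2 rose and 1 fell.

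Transcription factors of the KLF and SP family, which bind CACCC and GC boxes, moved in both directions. Of 13 KLF and SP factors tested, 6 rose and 4 fell. Klf13, a factor known to act on globin and lymphoid genes, was read at 120.3, 71.5 and 81.3 CPM at 0 h and 355 and 380.4 CPM at 13 h (2.01 ± 0.21, adjusted p = 7.16e-05). Klf1, the main red cell member, was read at 27.8, 35.5 and 36.9 CPM at 0 h and 56.3 and 70.1 CPM at 13 h (0.92 ± 0.20, adjusted p = 0.00436). Klf7 was read at 1.37, 1.07 and 1.70 CPM at 0 h and 0.0136 and 0.0817 CPM at 13 h (-4.77 ± 0.64, adjusted p = 0.000307), which is 440 reads over the 0 h libraries against 8 over those of 13 h. Klf10, a gene induced by TGF-beta, was read at 77.4, 50.97 and 52.1 CPM at 0 h and 9.69 and 10.3 CPM at 13 h (-2.59 ± 0.27, adjusted p = 7.02e-05), and Klf9 fell too (-1.71 ± 0.19). At Klf13 the start peak was read at 117, 74.05 and 81.4 CPM at 0 h and 258 and 197 CPM at 13 h (1.33 ± 0.21, adjusted p = 0.000399). Inside the gene 6 of 6 sense elements rose, while of 4 antisense elements 0 rose and 1 fell. Sense elements inside a gene can share reads with its body, so they are not separate support for its change. The list kept 7 of the 10 calls whichever library was left out.

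Bach1 had the largest change in the family that competes for NF-E2 sites. It pairs with small MAF proteins and represses globin and antioxidant genes until haem removes it. Bach1 was read at 61.3, 62.4 and 44.4 CPM at 0 h and 391 and 571 CPM at 13 h, 8.58-fold higher (3.10 ± 0.20, adjusted p = 5.69e-06). Mafk, a small MAF partner, stood at 71.2, 55.5 and 61.04 CPM at 0 h and 108 and 160.0 CPM at 13 h (1.10 ± 0.20, adjusted p = 0.00168). In both genes the 13 h libraries were above all 3 of 0 h, and replicate 2 was the higher one. Nfe2, the activator of the same sites, had 86.6, 78.4 and 108 CPM at 0 h and 141 and 121 CPM at 13 h (0.52 ± 0.24, adjusted p = 0.108) and was not called although its groups did not overlap. It was called without either G1E library (0.52, adjusted p = 0.0343, and 0.52, adjusted p = 0.0341) and in a fit of only the 5 libraries compared (0.53, adjusted p = 0.0331). Nfe2l2, the oxidant sensor NRF2, rose by less (0.49 ± 0.14) and was not called without 13 h replicate 1 (0.42, adjusted p = 0.102), 0 h replicate 2 (0.45, adjusted p = 0.0573) or 0 h replicate 3 (0.45, adjusted p = 0.0614). Of the 9 genes tested, 3 rose and 0 fell.

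In the list of ETS, RUNX and homeobox factors, which also holds Ikaros factors, 2 rose and 6 fell of 19. Ikzf2, an Ikaros factor best known in T cells, was read at 222, 167 and 152 CPM at 0 h and 44.4 and 36.4 CPM at 13 h (-2.16 ± 0.25, adjusted p = 0.000131). Elf4, an ETS factor, had 138, 96.01 and 98.97 CPM at 0 h and 37.2 and 33.9 CPM at 13 h (-1.64 ± 0.20, adjusted p = 0.000185). The start peak of Ikzf2 (chromosome 1, 69729700 to 69736201) did not move with its body, with 85.1, 64.2 and 62.7 CPM at 0 h and 76.99 and 63.998 CPM at 13 h (-0.00 ± 0.23, adjusted p = 0.996), while 2 sense elements and 1 antisense element inside the gene fell. Elf1 was read at 235, 218 and 220.0 CPM at 0 h and 330.1 and 364 CPM at 13 h (0.63 ± 0.12, adjusted p = 0.00282). The sense strand of its start element (chromosome 14, 79914650 to 79917501) fell, with 29.9, 49.3 and 35.6 CPM at 0 h and 19.4 and 27.9 CPM at 13 h (-0.69 ± 0.24, adjusted p = 0.0400). Of all 18 elements at or in Elf1, 3 rose and 4 fell. Inside the gene, 3 of 9 sense elements rose and 0 fell, while 0 of 7 antisense elements rose and 2 fell. Fli1, the megakaryocyte ETS factor, was read at 213, 163 and 128 CPM at 0 h and 440.2 and 315 CPM at 13 h (1.17 ± 0.38, adjusted p = 0.0332). Fli1 was not called without 13 h replicate 1 (0.93, adjusted p = 0.180), 0 h replicate 2 (1.15, adjusted p = 0.0749) or 0 h replicate 3 (1.01, adjusted p = 0.105). Spi1 (PU.1), which opposes GATA1 in progenitors, had 27.03, 22.7 and 22.7 CPM at 0 h and 41.7 and 27.03 CPM at 13 h and overlapping groups (0.51 ± 0.26, adjusted p = 0.141).

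**Figure D2:**
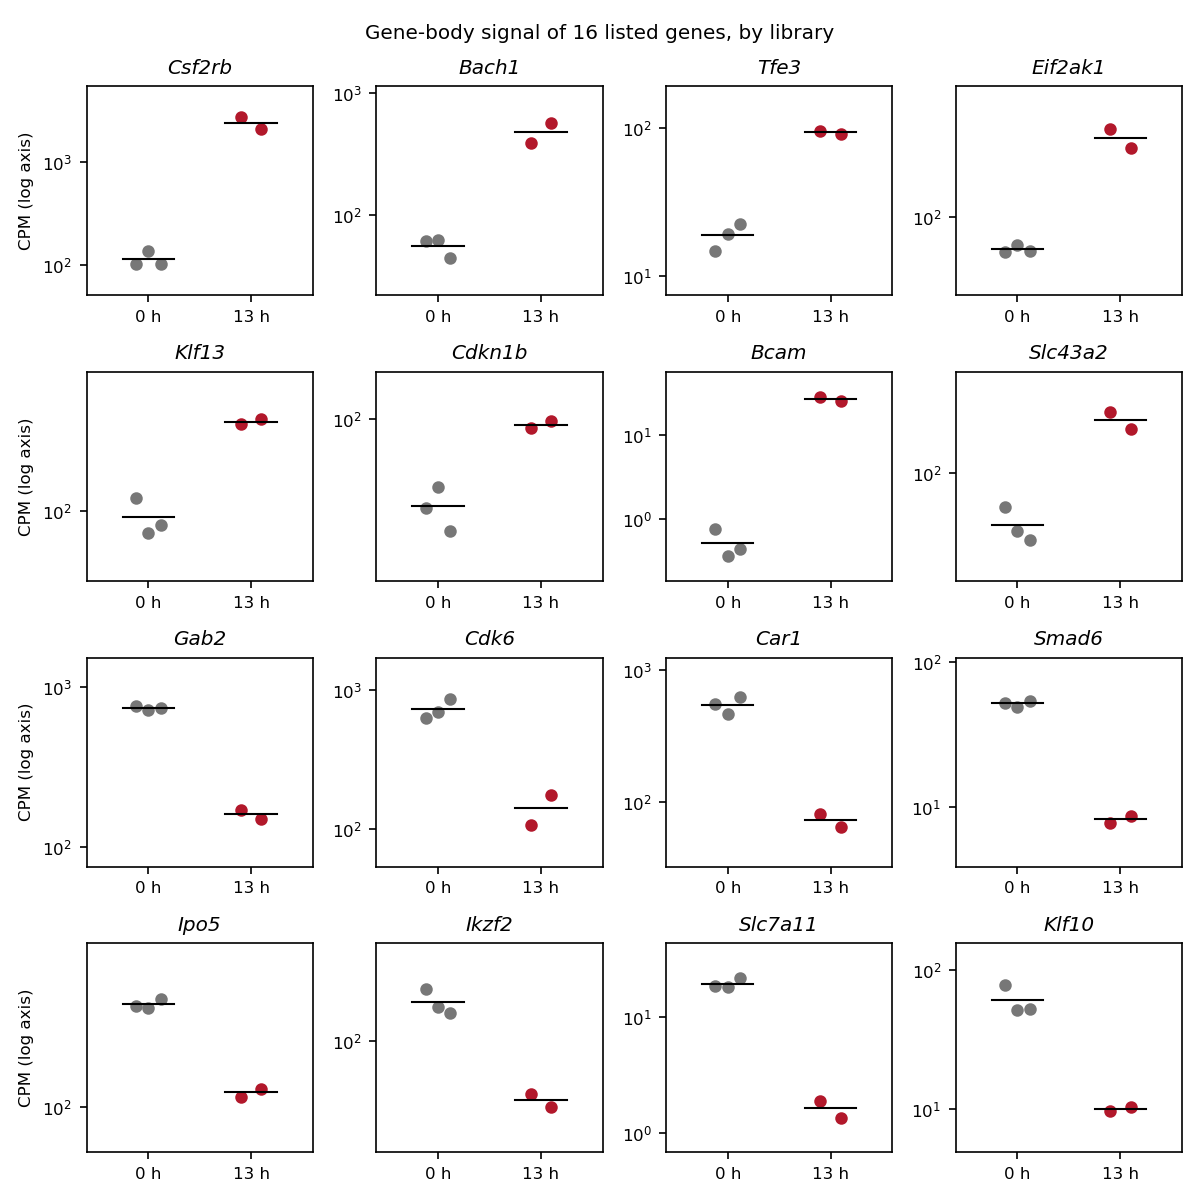
Gene-body level in CPM (vertical log axis) of 16 listed genes in the 3 libraries of 0 h (grey) and the 2 of 13 h (red), with the group mean as a black bar. The upper 8 genes rose and the lower 8 fell, and the groups of each gene do not overlap, which the choice of genes required.

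Cytokine signalling genes rose at shared receptor chains and fell at the adaptor Gab2. Of 26 genes tested, 9 rose and 5 fell (34.6% and 19.2%, against 20.1% and 20.9% of all genes). Csf2rb, the chain shared by the receptors of IL-3, IL-5 and GM-CSF and found near the erythropoietin receptor in red cells, was read at 103, 136 and 104 CPM at 0 h and 2713 and 2066 CPM at 13 h (4.39 ± 0.27, adjusted p = 4.57e-06). Its near copy Csf2rb2 was read at 18.3, 20.4 and 21.7 CPM at 0 h and 1402 and 1187 CPM at 13 h (6.01 ± 0.20, adjusted p = 1.94e-07), and the copies can share reads. Each has a start peak of its own, chromosome 15, 78154950 to 78161801 for Csf2rb (4.56 ± 0.25, adjusted p = 8.55e-08) and chromosome 15, 78132850 to 78138201 for Csf2rb2 (6.03 ± 0.26, adjusted p = 9.26e-09). Il6st, the shared chain of IL-6 type receptors, was read at 5.83, 6.004 and 5.36 CPM at 0 h and 18.02 and 14.4 CPM at 13 h, 2.83-fold higher (adjusted p = 0.000702). All 3 receptor chains were higher in both libraries of 13 h. Among the kinases and factors below the receptors, Stat5b (1.34 ± 0.13), Stat3 (1.24 ± 0.18), Jak1 (0.70 ± 0.12) and the survival kinase Pim1 (0.77 ± 0.17) rose. Gab2, an adaptor below Kit and cytokine receptors, was read at 768, 719 and 739 CPM at 0 h and 172 and 151 CPM at 13 h (-2.20 ± 0.13, adjusted p = 4.06e-06). Jak3, the kinase of the common gamma chain, stood at 30.2, 32.2 and 31.2 CPM at 0 h and 16.6 and 13.8 CPM at 13 h (-1.03 ± 0.19, adjusted p = 0.00218). The erythropoietin receptor gene Epor had 22.8, 20.2 and 24.8 CPM at 0 h and 14.2 and 19.6 CPM at 13 h (-0.42 ± 0.23, adjusted p = 0.180), and Jak2 had -0.21 ± 0.18 (adjusted p = 0.381). Neither was called. The list kept 10 of the 14 calls whichever library was left out, and 7 rose and 3 fell without 13 h replicate 1.

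Genes that answer to ERK, the kinase below Kit, were mixed: of 13 tested, 2 rose and 5 fell (median -0.52). Etv4, an ETS factor induced by ERK, was read at 9.73, 3.56 and 6.30 CPM at 0 h and 0.962 and 0.607 CPM at 13 h (-3.06 ± 0.52, adjusted p = 0.00125). Rasa3, a brake on Ras, had 4.13, 4.64 and 3.17 CPM at 0 h and 1.06 and 1.48 CPM at 13 h (-1.64 ± 0.33, adjusted p = 0.00323). Phlda1 was read at 28.5, 27.9 and 25.1 CPM at 0 h and 114 and 80.3 CPM at 13 h (1.84 ± 0.23, adjusted p = 0.000217). Spred3 was read at 7.52, 3.85 and 6.21 CPM at 0 h and 14.99 and 8.69 CPM at 13 h (1.01 ± 0.33, adjusted p = 0.0323). Spred3 was not called without 13 h replicate 1 (0.59, adjusted p = 0.283), 0 h replicate 2 (0.79, adjusted p = 0.0849) or 0 h replicate 3 (1.06, adjusted p = 0.0682). The list kept 3 of the 7 calls whichever library was left out, and 2 rose and 3 fell without 13 h replicate 2.

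Among genes of the G1 phase, a cyclin D and its kinase fell, and CDK inhibitors moved both ways. Of 25 tested, 6 rose and 8 fell (24% and 32%, against 20.1% and 20.9% of all genes). Cdk6, the cyclin D kinase of blood progenitors, was read at 629.9, 689.9 and 861 CPM at 0 h and 106 and 175 CPM at 13 h (-2.37 ± 0.22, adjusted p = 3.99e-05). The start peak (chromosome 5, 3339800 to 3345101) and 6 sense elements inside the gene, which can share reads with its body, fell with it. Of the 5 antisense elements inside Cdk6, 0 rose and 0 fell. Ccnd2, a cyclin D, was read at 536, 476 and 487 CPM at 0 h and 181 and 234 CPM at 13 h (-1.27 ± 0.28, adjusted p = 0.00508) and was not called without 13 h replicate 1 (-1.07, adjusted p = 0.0553). E2f5, a repressing E2F factor, was read at 52.3, 55.5 and 55.3 CPM at 0 h and 21.1 and 22.96 CPM at 13 h (-1.30 ± 0.14, adjusted p = 9.28e-05). The inhibitor Cdkn1b (p27) was read at 28.9, 38.9 and 20.95 CPM at 0 h and 88.7 and 96.8 CPM at 13 h (1.65 ± 0.22, adjusted p = 0.000356), and Cdkn2c (p18) rose as well (1.06 ± 0.22). The inhibitor Cdkn2b (p15) fell (-3.29 ± 1.06, adjusted p = 0.0312) from a mean of only 0.0774 CPM at 0 h, and was not called without either library of 13 h (-2.51, adjusted p = 0.170, and -5.67, adjusted p = 0.0549), 0 h replicate 1 (-2.91, adjusted p = 0.0673) or 0 h replicate 2 (-3.26, adjusted p = 0.0573). Ccne1, cyclin E1, was read at 67.2, 65.4 and 52.99 CPM at 0 h and 136 and 131 CPM at 13 h (1.11 ± 0.22, adjusted p = 0.00320). Cdkn1a (p21) had 126, 149.7 and 99.8 CPM at 0 h and 131 and 137 CPM at 13 h, and its groups overlapped (0.10 ± 0.25, adjusted p = 0.775). Its direction turned under total-count scaling (-0.00, adjusted p = 0.990) and without 0 h replicate 3 (-0.04, adjusted p = 0.932). The list kept 6 of the 14 calls whichever library was left out, and 3 rose and 4 fell without 13 h replicate 1.

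Among 15 genes of the BCL2 family, which set the threshold for cell death, 5 rose and 1 fell. Bok, a killer protein, was read at 0.101, 0.116 and 0.0206 CPM at 0 h and 1.08 and 2.26 CPM at 13 h (4.49 ± 0.65, adjusted p = 0.000492), 20 reads at 0 h against 274 at 13 h. Bcl2l13, a receptor for the removal of mitochondria, was read at 183, 221 and 229 CPM at 0 h and 487 and 481 CPM at 13 h (1.20 ± 0.15, adjusted p = 0.000242), and Bmf, a BH3 protein, rose as well (2.99 ± 0.65). Bid, which links death receptors to mitochondria, was read at 213, 178 and 209.7 CPM at 0 h and 44.6 and 76.6 CPM at 13 h (-1.72 ± 0.25, adjusted p = 0.000508). Bcl2l1 (BCL-XL), the survival protein of maturing red cells, was read at 166, 144 and 115 CPM at 0 h and 228 and 207 CPM at 13 h (0.62 ± 0.22, adjusted p = 0.0455). That last call was lost without 0 h replicate 2 (0.63, adjusted p = 0.0857), 0 h replicate 3 (0.49, adjusted p = 0.140), 13 h replicate 1 (0.57, adjusted p = 0.174) or 13 h replicate 2 (0.69, adjusted p = 0.0863), and under total-count scaling (0.51, adjusted p = 0.0947). The list kept 4 of the 6 calls whichever library was left out, and 3 rose and 3 fell without 13 h replicate 2.

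The integrated stress response, which slows translation under stress, moved in both directions, with its haem-regulated kinase up and the cystine importer down. Of 16 tested genes, 6 rose and 5 fell, and the falls came to 2 without 0 h replicate 3 and to 3 without 0 h replicate 1 or 13 h replicate 1. Eif2ak1 (HRI), the kinase that slows translation when haem is short, was read at 57.6, 64.3 and 58.4 CPM at 0 h and 408 and 303 CPM at 13 h (2.57 ± 0.17, adjusted p = 6.50e-06), and its start peak had 30.4, 26.4 and 26.3 CPM at 0 h and 133 and 180.4 CPM at 13 h (2.50 ± 0.20, adjusted p = 1.23e-06). Ppp1r15a, which brings the phosphatase that ends the response, was read at 22.1, 21.2 and 18.1 CPM at 0 h and 84.7 and 119 CPM at 13 h (2.31 ± 0.17, adjusted p = 1.17e-05), and its constitutive relative Ppp1r15b rose too (1.29 ± 0.10). Cbs, which makes cystathionine from serine and homocysteine (2.64 ± 0.52), and Ddit3 (CHOP, 1.35 ± 0.14) rose. Slc7a11, the cystine importer whose promoter is printed above, was read at 18.5, 18.2 and 21.7 CPM at 0 h and 1.91 and 1.37 CPM at 13 h (-3.57 ± 0.42, adjusted p = 0.000147), and Asns, asparagine synthetase, fell (-0.73 ± 0.13). Shmt1, of serine and folate metabolism, was read at 39.2, 45.4 and 49.8 CPM at 0 h and 11.4 and 25.2 CPM at 13 h (-1.29 ± 0.43, adjusted p = 0.0343), and was not called without 13 h replicate 1 (-0.81, adjusted p = 0.224), 0 h replicate 2 (-1.28, adjusted p = 0.0624) or 0 h replicate 3 (-1.20, adjusted p = 0.0845). Atf4, the factor of the pathway, had -0.10 ± 0.21 (adjusted p = 0.745) and was not called. The 2 libraries of 13 h differed for this list, with medians of -0.41 in replicate 1 and -0.01 in replicate 2 against the 0 h mean.

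Amino acid transporters also moved both ways: of 16 tested, 5 rose and 6 fell. Slc38a5, a glutamine and glycine transporter, was near silent at 0.239, 0.116 and 0.261 CPM at 0 h and 35.6 and 29.5 CPM at 13 h (7.25 ± 0.31, adjusted p = 6.91e-07). Slc43a2, for large neutral amino acids, was read at 56.1, 36.995 and 31.7 CPM at 0 h and 283 and 213 CPM at 13 h (2.58 ± 0.25, adjusted p = 5.00e-05), and Slc25a38, which brings glycine into mitochondria for haem synthesis, rose too (1.62 ± 0.12). Slc7a7 was read at 10.54, 7.52 and 11.8 CPM at 0 h and 4.77 and 2.47 CPM at 13 h (-1.46 ± 0.41, adjusted p = 0.0177). Slc1a4 stood at 47.7, 41.6 and 57.6 CPM at 0 h and 17.3 and 21.6 CPM at 13 h (-1.33 ± 0.37, adjusted p = 0.0158). Slc7a7 was not called without 13 h replicate 2 (-1.06, adjusted p = 0.118) or 0 h replicate 3 (-1.32, adjusted p = 0.0558), and Slc1a4 without 13 h replicate 1 (-1.16, adjusted p = 0.106) or 0 h replicate 3 (-1.19, adjusted p = 0.0512). Slc3a2, the shared heavy chain of several transporters, fell (-0.69 ± 0.13), and Slc38a2, which starved cells induce, did as well (-0.98 ± 0.20). The list kept 6 of the 11 calls whichever library was left out, and 6 rose and 3 fell without 13 h replicate 1.

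Of 21 tested genes of glycolysis and 2,3-BPG, 4 rose and 4 fell, each near the share of all genes (20.1% and 20.9%). At 15 start elements of these genes, 4 rose and 1 fell. Hk1, the hexokinase of red cells, was read at 119.6, 177 and 174 CPM at 0 h and 459 and 807 CPM at 13 h (2.01 ± 0.26, adjusted p = 0.000257). Slc16a3, a lactate exporter, had 1.65, 0.981 and 0.598 CPM at 0 h and 20.8 and 25.6 CPM at 13 h (4.45 ± 0.40, adjusted p = 3.43e-05). Pfkm, a phosphofructokinase, rose too (1.95 ± 0.12). Bpgm, which makes the 2,3-BPG that loosens oxygen from haemoglobin, was read at 29.8, 26.7 and 21.6 CPM at 0 h and 42.6 and 34.97 CPM at 13 h (0.58 ± 0.17, adjusted p = 0.0224), and was not called without 13 h replicate 1 (0.45, adjusted p = 0.147), 0 h replicate 3 (0.46, adjusted p = 0.0790) or under total counts (0.47, adjusted p = 0.0701). Pgk1 was read at 53.3, 76.3 and 82.5 CPM at 0 h and 4.61 and 21.2 CPM at 13 h (-2.45 ± 0.59, adjusted p = 0.00794). Ldha, lactate dehydrogenase, was read at 119.7, 151 and 149.9 CPM at 0 h and 12.6 and 51.4 CPM at 13 h (-2.13 ± 0.58, adjusted p = 0.0152), and its start element was not called. In both falling genes replicate 1 of 13 h was far below replicate 2, Ldha was not called without replicate 1 (-1.43, adjusted p = 0.0706), and without the expression filter neither passed (-2.47, adjusted p = 0.0781, and -2.15, adjusted p = 0.115). Pkm fell too, at 244, 226 and 235 CPM at 0 h and 58.8 and 109 CPM at 13 h (-1.49 ± 0.25, adjusted p = 0.00110). Gapdh had 96.9, 209.6 and 136 CPM at 0 h and 35.5 and 134 CPM at 13 h and was not called (-0.80 ± 0.48, adjusted p = 0.207). The glucose carrier Slc2a1 had 42.6, 44.1 and 37.2 CPM at 0 h and 27.99 and 44.9 CPM at 13 h (-0.18 ± 0.26, adjusted p = 0.613), with overlapping groups, and its direction turned without 13 h replicate 1 (0.14, adjusted p = 0.750). The list's median against the 0 h mean was -0.85 in 13 h replicate 1 and 0.05 in replicate 2, and 19 of 21 genes were lower in replicate 1. Without replicate 2, 11 of the 21 fell, and without replicate 1, 3 did.

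Cholesterol genes differed more between replicate numbers than between 0 h and 13 h. Of 22 tested genes of cholesterol synthesis and its SREBP control, 2 rose and 2 fell (median -0.04). Against the 0 h mean, the list's median was -0.54, 0.30 and 0.27 in the 0 h libraries and -0.63 and 0.52 in those of 13 h. Replicate 1 was the lower one in 21 of 22 genes between the libraries of 13 h, and lower than replicate 2 in 19 of 22 between those of 0 h, and 19 were lower at both times. Over all 13825 tested genes, replicate 1 was the lower one at both times for 4729. Sqle, squalene epoxidase, had 50.6, 122 and 119 CPM at 0 h and 38.1 and 135 CPM at 13 h (-0.17 ± 0.48, adjusted p = 0.806). Fdft1, squalene synthase, had 84.5, 222 and 193 CPM at 0 h and 69.5 and 306 CPM at 13 h (0.17 ± 0.55, adjusted p = 0.828). In both the low libraries are those of replicate 1, label numbers 1501 and 1502, and the groups overlap. Between libraries of adjacent numbers the list's median difference was -0.05 for replicate 1 and 0.23 for replicate 2. Srebf2, the factor that drives the pathway, did rise, at 323, 365 and 352 CPM at 0 h and 599.9 and 807 CPM at 13 h (1.02 ± 0.14, adjusted p = 0.000304). Ebp, a sterol isomerase, stood at 14.2, 17.7 and 13.8 CPM at 0 h and 27.99 and 38.97 CPM at 13 h (1.14 ± 0.23, adjusted p = 0.00356). Scap, the escort of SREBP, had 96.3, 89.95 and 91.2 CPM at 0 h and 63.6 and 71.4 CPM at 13 h (-0.45 ± 0.15, adjusted p = 0.0295). Without 13 h replicate 1 Scap was not called (-0.35, adjusted p = 0.186). The list's median was then 0.48, with 4 rises and 0 falls, against -0.66, with 2 rises and 6 falls, without 13 h replicate 2. The call of Scap was also lost without 0 h replicate 1 (-0.42, adjusted p = 0.0687), 0 h replicate 2 (-0.47, adjusted p = 0.0590) or 0 h replicate 3 (-0.46, adjusted p = 0.0701).

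**Figure D3:**
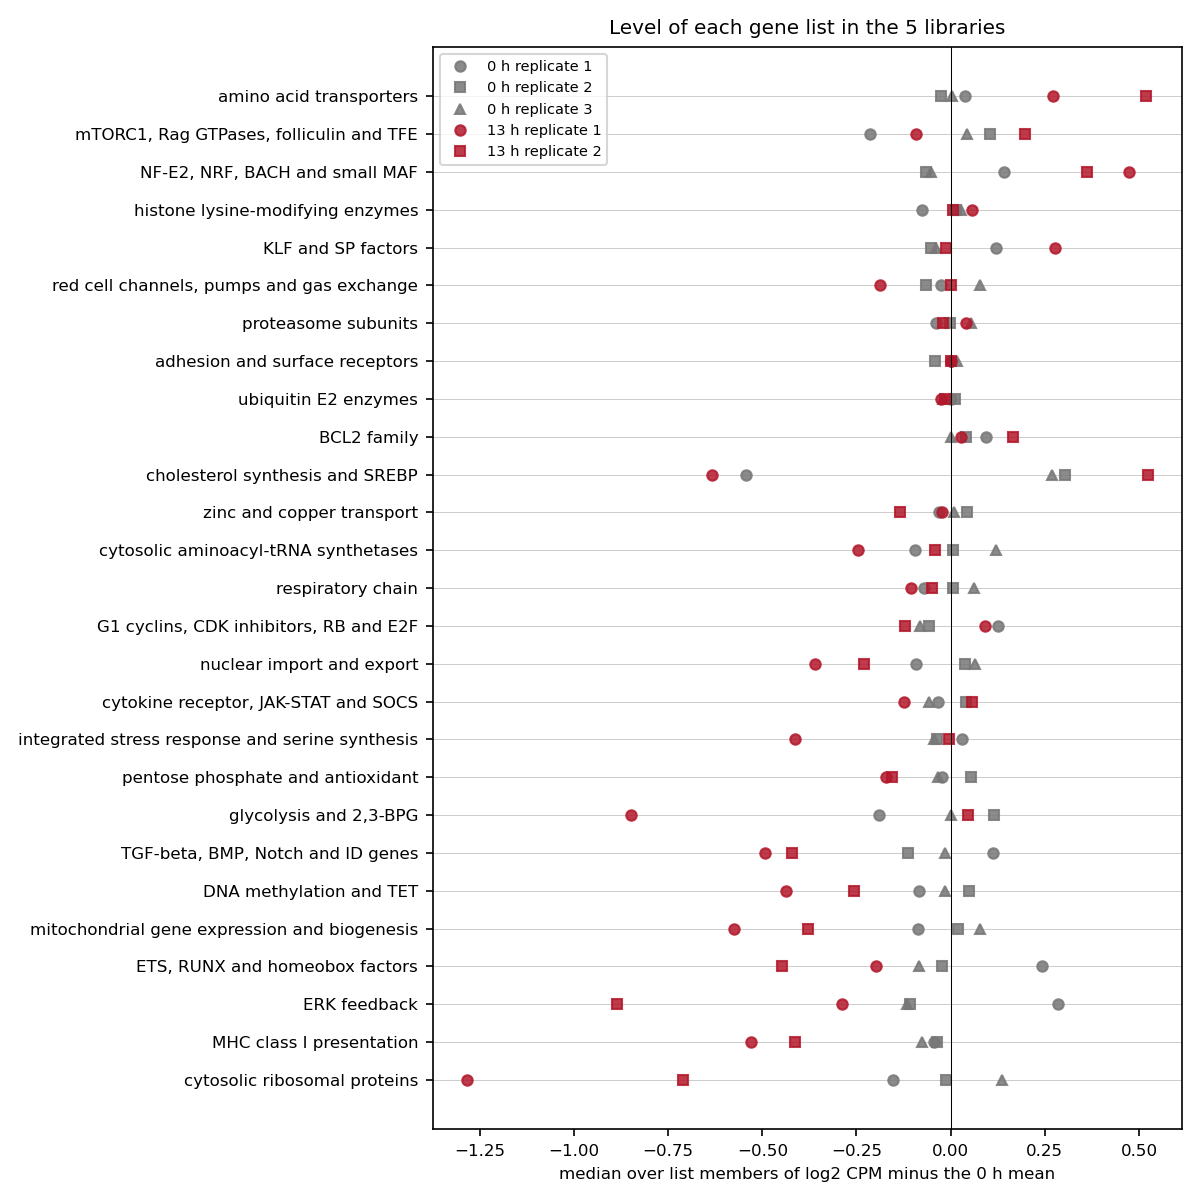
Median over the tested members of each list of log2 CPM minus the 0 h mean (horizontal axis) in each of the 5 libraries, grey for 0 h and red for 13 h, with the replicate given by the marker's shape. The ribosomal protein genes are lower in both libraries of 13 h (-1.28 and -0.71), while the cholesterol genes are low in replicate 1 of both groups (-0.54 and -0.63) and high in the others.

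Of 22 tested genes of the pentose phosphate path and antioxidant defence, 5 rose and 6 fell (22.7% and 27.3%, against 20.1% and 20.9% of all genes). Prdx2, the main peroxiredoxin of red cells, was read at 40.8, 39.4 and 49.04 CPM at 0 h and 98.7 and 93.6 CPM at 13 h (1.16 ± 0.14, adjusted p = 0.000166). Cat, catalase, was read at 61.8, 66.6 and 57.3 CPM at 0 h and 142 and 131 CPM at 13 h (1.14 ± 0.13, adjusted p = 0.000102). Sod2, the superoxide dismutase of mitochondria, was read at 60.1, 63.4 and 60.4 CPM at 0 h and 18.3 and 27.9 CPM at 13 h (-1.41 ± 0.22, adjusted p = 0.000760). Pgd, of the pentose phosphate path, stood at 93.7, 101 and 109.6 CPM at 0 h and 34.6 and 48.3 CPM at 13 h (-1.29 ± 0.16, adjusted p = 0.000243). Gsr, glutathione reductase, fell as well (-1.16 ± 0.18), while Hmox1, which breaks down haem and is a BACH1 target, had -0.25 ± 0.28 (adjusted p = 0.496). The list kept 8 of the 11 calls whichever library was left out.

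In the list of mTORC1, Rag GTPases, folliculin and the TFE factors, 5 rose and 3 fell of 23, the rises near the share of all genes (21.7% against 20.1%). The falls came to 1 when either G1E library, 13 h replicate 1, or replicate 2 or 3 of 0 h was left out, and the rises to 3 without 13 h replicate 2. Tfe3, a factor of lysosome genes, was read at 14.9, 19.3 and 22.6 CPM at 0 h and 96.4 and 91.6 CPM at 13 h (2.31 ± 0.21, adjusted p = 3.63e-05). Its paralogue Tfeb was read at 64.8, 48.6 and 53.2 CPM at 0 h and 30.4 and 26.3 CPM at 13 h (-0.97 ± 0.18, adjusted p = 0.00185). Tfe3 and Tfeb thus moved in opposite directions, each with groups apart. Mitf, of the same family, fell too, but its call was lost in some fits with a library left out. Rragd, a Rag GTPase that TFE factors induce, was read at 8.35, 8.90 and 15.99 CPM at 0 h and 42.7 and 62.8 CPM at 13 h (2.25 ± 0.33, adjusted p = 0.000542), with 5.56, 5.56 and 7.05 CPM at 0 h and 20.4 and 23.3 CPM at 13 h (1.85 ± 0.34, adjusted p = 0.00121) at its start peak, and Rraga rose too (1.55 ± 0.29). Fnip2, a folliculin partner, was read at 255, 291 and 306 CPM at 0 h and 152 and 229 CPM at 13 h (-0.58 ± 0.20, adjusted p = 0.0409), and was not called without 13 h replicate 1 (-0.29, adjusted p = 0.344), 0 h replicate 2 (-0.56, adjusted p = 0.0862), 0 h replicate 3 (-0.52, adjusted p = 0.112) or either G1E library (-0.58, adjusted p = 0.0569; -0.58, adjusted p = 0.0564). Mtor had -0.06 ± 0.14 (adjusted p = 0.760) and Flcn, folliculin, 0.72 ± 0.37 (adjusted p = 0.144).

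Of 30 ubiquitin E2 enzymes tested, 6 rose and 9 fell (20% and 30%, against 20.1% and 20.9% of all genes). Ube2l6, the E2 for the ubiquitin-like ISG15, was read at 4.01, 3.40 and 2.62 CPM at 0 h and 33.2 and 44.4 CPM at 13 h (3.54 ± 0.23, adjusted p = 5.81e-06). Ube2j1, an E2 of the endoplasmic reticulum, had 56.5, 41.7 and 41.5 CPM at 0 h and 222 and 176 CPM at 13 h (2.10 ± 0.20, adjusted p = 4.22e-05). Ube2h, which marks proteins for removal in maturing red cells, rose too (1.21 ± 0.19). Ube2e1 was read at 108, 93.9 and 99.1 CPM at 0 h and 48.001 and 44.7 CPM at 13 h (-1.11 ± 0.15, adjusted p = 0.000387). Ube2g1 was read at 211, 206 and 216 CPM at 0 h and 95.4 and 109 CPM at 13 h (-1.05 ± 0.12, adjusted p = 0.000102). The list kept 5 of the 15 calls whichever library was left out, and 3 rose and 4 fell without 13 h replicate 1.

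Of 31 proteasome subunits tested, 5 rose and 3 fell (16.1% and 9.68%; under total-count scaling 4 and 6), with a median of 0.02. Psmd13 was read at 47.4, 45.2 and 51.5 CPM at 0 h and 113 and 79.7 CPM at 13 h (1.002 ± 0.17, adjusted p = 0.00130). Psmc2 stood at 55.8, 62.5 and 63.1 CPM at 0 h and 102 and 120.3 CPM at 13 h (0.88 ± 0.13, adjusted p = 0.000487). Psmd7 was read at 68.7, 65.7 and 74.4 CPM at 0 h and 42.6 and 48.98 CPM at 13 h (-0.60 ± 0.14, adjusted p = 0.00702). Psmb3 had 65.3, 61.4 and 65.9 CPM at 0 h and 46.9 and 40.8 CPM at 13 h (-0.55 ± 0.15, adjusted p = 0.0155). Psmd7 was not called without 13 h replicate 1 (-0.49, adjusted p = 0.0699), and Psmb3 not without 13 h replicate 2 (-0.45, adjusted p = 0.0940) or 0 h replicate 3 (-0.53, adjusted p = 0.0510), and 1 subunit fell without either of the last 2.

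Of 22 genes of zinc and copper transport tested, 5 rose and 7 fell (22.7% and 31.8%, against 20.1% and 20.9% of all genes), and 5 rose and 4 fell without 13 h replicate 1. Slc30a10, an exporter of manganese in the zinc carrier family, was read at 59.2, 67.005 and 74.7 CPM at 0 h and 289 and 299.6 CPM at 13 h (2.14 ± 0.18, adjusted p = 2.67e-05). Slc31a1, the copper importer, was read at 62.4, 60.7 and 61.6 CPM at 0 h and 148 and 162 CPM at 13 h (1.33 ± 0.12, adjusted p = 2.77e-05). Mt2, a metal-binding metallothionein, was read at 16.7, 17.3 and 15.99 CPM at 0 h and 2.85 and 7.18 CPM at 13 h (-1.73 ± 0.34, adjusted p = 0.00256), and its neighbour Mt1 fell too (-1.34 ± 0.24). Slc39a11, a zinc carrier, was read at 125, 145 and 139 CPM at 0 h and 36.8 and 56.8 CPM at 13 h (-1.54 ± 0.21, adjusted p = 0.000391).

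Of 20 genes for red cell channels, pumps and gas exchange, 5 rose and 4 fell (25% and 20%, against 20.1% and 20.9% of all genes). Slc12a4, a potassium chloride cotransporter that sets red cell volume, was read at 41.99, 38.4 and 43.9 CPM at 0 h and 193 and 179.5 CPM at 13 h (2.17 ± 0.17, adjusted p = 1.72e-05), and the water and glycerol channel Aqp3 at 0.630, 0.400 and 0.461 CPM at 0 h and 3.78 and 1.34 CPM at 13 h (2.36 ± 0.59, adjusted p = 0.00953). Car1, carbonic anhydrase 1, was read at 561, 464 and 626 CPM at 0 h and 81.7 and 65.01 CPM at 13 h (-2.91 ± 0.21, adjusted p = 8.95e-06). Its start peak had 185, 142 and 178 CPM at 0 h and 28.9 and 25.9 CPM at 13 h (-2.62 ± 0.22, adjusted p = 2.03e-06), so element and body fell together. Kcnn4, the Gardos potassium channel, was read at 77.8, 106 and 119.6 CPM at 0 h and 38.5 and 50.7 CPM at 13 h (-1.18 ± 0.30, adjusted p = 0.0111). Aqp3 (1.45, adjusted p = 0.130) and Kcnn4 (-0.98, adjusted p = 0.0964) were not called without 13 h replicate 1, where 6 rose and 2 fell. Car2, carbonic anhydrase 2, had 0.47 ± 0.36 (adjusted p = 0.325).

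Of 29 genes of the respiratory chain, 5 rose and 6 fell (median -0.11). These shares, 17.2% and 20.7%, were near those of all genes (20.1% and 20.9%). Cox5b, of complex IV, was read at 8.98, 6.03 and 7.60 CPM at 0 h and 20.1 and 20.3 CPM at 13 h (1.42 ± 0.21, adjusted p = 0.000504). Sdhd, of complex II, stood at 24.1, 36.7 and 32.4 CPM at 0 h and 42.9 and 60.6 CPM at 13 h (0.74 ± 0.20, adjusted p = 0.0150). Atp5d, of the ATP synthase, was read at 11.1, 13.5 and 14.7 CPM at 0 h and 4.68 and 7.25 CPM at 13 h (-1.14 ± 0.26, adjusted p = 0.00577). Cox7c, of complex IV, had 16.4, 13.1 and 17.6 CPM at 0 h and 9.54 and 9.52 CPM at 13 h (-0.72 ± 0.20, adjusted p = 0.0155). Sdhd was not called without 13 h replicate 2 (0.47, adjusted p = 0.140), and Atp5d not without replicate 1 (-0.84, adjusted p = 0.0596). Cox7c was not called without 13 h replicate 1 (-0.70, adjusted p = 0.0790), 13 h replicate 2 (-0.72, adjusted p = 0.0639) or 0 h replicate 3 (-0.63, adjusted p = 0.0607). Only 3 of the 11 calls were kept whichever library was left out, and 2 rose and 2 fell without 13 h replicate 1.

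Enzymes that modify histone lysines moved in both directions: of 41 tested, 13 rose and 8 fell, and under total-count scaling 10 rose and 11 fell. Hdac5, a deacetylase, was read at 20.8, 19.7 and 14.9 CPM at 0 h and 42.7 and 55.2 CPM at 13 h (1.41 ± 0.22, adjusted p = 0.000852). Kdm1a (LSD1), a demethylase that works with GFI1B in red cells, was read at 118, 119 and 121 CPM at 0 h and 221 and 208 CPM at 13 h (0.84 ± 0.11, adjusted p = 0.000257). Ezh1, the Polycomb methyltransferase of resting cells, rose as well (0.82 ± 0.14), while Ezh2 had 224, 281 and 289 CPM at 0 h and 253 and 254 CPM at 13 h (-0.06 ± 0.15, adjusted p = 0.769), with overlapping groups and a direction that turned without 0 h replicate 3 (0.01, adjusted p = 0.981). Ehmt2 (G9a), which methylates histone H3 at lysine 9, was read at 80.2, 93.6 and 83.8 CPM at 0 h and 28.8 and 27.8 CPM at 13 h (-1.60 ± 0.14, adjusted p = 2.67e-05). Hdac7 stood at 179, 207 and 275 CPM at 0 h and 110.4 and 108 CPM at 13 h (-1.02 ± 0.20, adjusted p = 0.00271). The list kept 12 of the 21 calls whichever library was left out, and 10 rose and 4 fell without 13 h replicate 1.

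Of 16 genes for DNA methylation and its removal, 3 rose and 4 fell (median -0.41), and under total-count scaling 1 and 6. The main shares were 18.8% and 25%, against 20.1% and 20.9% of all genes. Mbd1 was read at 142, 111 and 121 CPM at 0 h and 219.9 and 161 CPM at 13 h (0.61 ± 0.16, adjusted p = 0.0109). Mbd4 had 25.4, 27.9 and 27.1 CPM at 0 h and 37.5 and 35.96 CPM at 13 h (0.46 ± 0.15, adjusted p = 0.0304). Dnmt3b, a methyltransferase of new sites, was read at 34.9, 36.8 and 40.2 CPM at 0 h and 14.2 and 17.3 CPM at 13 h (-1.25 ± 0.29, adjusted p = 0.00698). Uhrf1, which guides Dnmt1, was read at 191, 161 and 174 CPM at 0 h and 105 and 102 CPM at 13 h (-0.76 ± 0.22, adjusted p = 0.0198). The 7 calls of the list were all lost without 13 h replicate 1, among them Mbd1 (0.39, adjusted p = 0.116), Mbd4 (0.45, adjusted p = 0.114), Dnmt3b (-1.09, adjusted p = 0.0619) and Uhrf1 (-0.75, adjusted p = 0.0862). Mbd4 (0.49, adjusted p = 0.0736) and Uhrf1 (-0.74, adjusted p = 0.0800) were not called without 13 h replicate 2 either, and Uhrf1 not without 0 h replicate 1 (-0.69, adjusted p = 0.0501). Mbd4 was also lost without 0 h replicate 1 (0.42, adjusted p = 0.0735), 0 h replicate 2 (0.49, adjusted p = 0.0591) or 0 h replicate 3 (0.47, adjusted p = 0.0749).

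Adhesion and surface receptors moved in both directions. Of 25 tested, 4 rose and 6 fell (16% and 24%, against 20.1% and 20.9% of all genes), and 15 were not called. Bcam, the Lutheran antigen and laminin receptor, was read at 0.743, 0.362 and 0.440 CPM at 0 h and 28.3 and 25.1 CPM at 13 h (5.70 ± 0.32, adjusted p = 2.56e-06), and both strands of its start element rose. Icam4, the Landsteiner-Wiener antigen, rose too (1.75 ± 0.27). The beta and alpha chains of LFA-1 moved apart. Itgb2, the beta chain, was read at 51.9, 49.7 and 46.4 CPM at 0 h and 193 and 205 CPM at 13 h (2.01 ± 0.29, adjusted p = 0.000504). Itgal, the alpha chain, stood at 79.2, 53.6 and 58.6 CPM at 0 h and 3.17 and 1.12 CPM at 13 h (-4.90 ± 0.57, adjusted p = 0.000149). Spn (CD43) was read at 74.8, 67.3 and 86.4 CPM at 0 h and 20.5 and 18.3 CPM at 13 h (-1.97 ± 0.17, adjusted p = 3.05e-05), and Cd44 (-1.95 ± 0.24) and Itga4 (-1.94 ± 0.16), receptors for hyaluronan and VCAM-1, fell as well. The list kept 9 of the 10 calls whichever library was left out.

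Of 24 genes of TGF-beta, BMP, Notch and ID signalling, 2 rose and 6 fell (median -0.39). Smad6, the inhibitor of BMP signalling, was read at 52.6, 49.4 and 54.01 CPM at 0 h and 7.74 and 8.70 CPM at 13 h (-2.66 ± 0.23, adjusted p = 2.67e-05), and its start peak had 45.9, 38.2 and 41.7 CPM at 0 h and 4.59 and 7.002 CPM at 13 h (-2.85 ± 0.32, adjusted p = 2.30e-05). The BMP effectors parted. Smad1 was read at 12.02, 7.37 and 5.49 CPM at 0 h and 2.89 and 1.44 CPM at 13 h (-1.94 ± 0.45, adjusted p = 0.00638). Smad5 had 93.7, 74.2 and 73.1 CPM at 0 h and 161 and 131 CPM at 13 h (0.86 ± 0.16, adjusted p = 0.00199). Eng, a coreceptor, was read at 4.37, 1.86 and 2.89 CPM at 0 h and 12.8 and 10.45 CPM at 13 h (1.94 ± 0.43, adjusted p = 0.00555). Smad1 and Smad6 were thus lower, and Smad5 and Eng higher, in both libraries of 13 h. The list kept 4 of the 8 calls whichever library was left out, and 2 rose and 2 fell without 13 h replicate 1.

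Of 15 genes of MHC class I presentation, 1 rose and 6 fell. Nlrc5, the transactivator of class I genes, was read at 1.25, 0.684 and 1.02 CPM at 0 h and 0.217 and 0.222 CPM at 13 h (-2.16 ± 0.42, adjusted p = 0.00248). Irf1, an interferon factor, was read at 6.27, 8.08 and 5.38 CPM at 0 h and 1.33 and 1.80 CPM at 13 h (-2.07 ± 0.30, adjusted p = 0.000511). Both fell, Nlrc5 from a low level, and Tap1, a peptide transporter, fell too (-1.23 ± 0.27). H2-T23, a non-classical class I gene with near copies, was read at 0.718, 0.581 and 0.591 CPM at 0 h and 2.93 and 2.08 CPM at 13 h (1.99 ± 0.36, adjusted p = 0.00168), and B2m had 0.39 ± 0.19 (adjusted p = 0.131). The list kept 4 of the 7 calls whichever library was left out, and 1 rose and 3 fell without 13 h replicate 1.

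The genes ranked 11 to 25 by fold change in each direction, of which Bcam, Itgal and Klf7 also belong to the lists, were followed as well. Among those that rose, Btg2, an antiproliferative gene, was read at 9.10, 7.63 and 3.46 CPM at 0 h and 269 and 383 CPM at 13 h (5.61 ± 0.37, adjusted p = 5.71e-06), and its start peak had 34.9, 32.1 and 20.003 CPM at 0 h and 672 and 882 CPM at 13 h (4.74 ± 0.29, adjusted p = 2.38e-07). Gsdma, of the pore-forming gasdermins, was read at 0.642, 0.284 and 0.302 CPM at 0 h and 41.03 and 25.2 CPM at 13 h (6.36 ± 0.43, adjusted p = 6.50e-06). Dhrs3, which turns retinal back to retinol, stood at 0.0756, 0.0775 and 0.0550 CPM at 0 h and 4.81 and 5.33 CPM at 13 h (6.20 ± 0.38, adjusted p = 4.58e-06). Ago4, an Argonaute protein, was read at 0.0756, 0.0258 and 0.0275 CPM at 0 h and 2.41 and 2.02 CPM at 13 h (5.70 ± 0.64, adjusted p = 0.000115). All 4 were near silent or low at 0 h, and Dhrs3 and Ago4 held 20 and 12 reads there in all. Among those that fell, Fosl1, an AP-1 factor, was read at 37.01, 31.96 and 29.6 CPM at 0 h and 1.44 and 0.910 CPM at 13 h (-4.81 ± 0.48, adjusted p = 5.92e-05). Fam107b had 47.3, 30.8 and 48.3 CPM at 0 h and 1.25 and 0.595 CPM at 13 h (-5.52 ± 0.72, adjusted p = 0.000261). Papln, a matrix protein, was read at 6.19, 8.78 and 8.27 CPM at 0 h and 0.230 and 0.210 CPM at 13 h (-5.13 ± 0.44, adjusted p = 2.67e-05). Rspo3, a Wnt amplifier, was read at 5.38, 1.24 and 1.83 CPM at 0 h and 0.0678 and 0.0817 CPM at 13 h (-5.20 ± 0.76, adjusted p = 0.000512). Adgrg5, an adhesion receptor, held 325 reads at 0 h and 3 at 13 h, a ratio of 57.2 with a 95% counting interval of 19.4 to 279.

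The largest differences in level, which favour long and busy genes, named others. Tmem131 was read at 719.7, 843 and 789 CPM at 0 h and 3092 and 3277 CPM at 13 h (2.02 ± 0.14, adjusted p = 7.26e-06). Adk, adenosine kinase, stood at 881, 821 and 856 CPM at 0 h and 3051 and 3288 CPM at 13 h (1.89 ± 0.14, adjusted p = 1.07e-05). Atp8a1, a flippase that keeps phosphatidylserine on the inner membrane leaflet, was read at 442, 409.7 and 358 CPM at 0 h and 2424 and 2089.5 CPM at 13 h (2.48 ± 0.14, adjusted p = 2.49e-06). Baz1a, of chromatin remodelling, had 587, 626 and 661 CPM at 0 h and 1990.1 and 2243 CPM at 13 h (1.76 ± 0.12, adjusted p = 8.01e-06). Fut8, which adds core fucose to glycoproteins, was read at 1348, 1321 and 1327 CPM at 0 h and 317 and 309 CPM at 13 h (-2.09 ± 0.22, adjusted p = 8.51e-05). Prkar2b, a subunit of protein kinase A, was read at 778, 985 and 835 CPM at 0 h and 277 and 288 CPM at 13 h (-1.62 ± 0.17, adjusted p = 7.63e-05). Each of these 6 changed by a factor of 3.07 to 5.60 with no overlap of the groups. Cmss1, at 2294, 1879 and 2643 CPM at 0 h and 1769 and 1209.9 CPM at 13 h (-0.61 ± 0.22, adjusted p = 0.0478), changed by less, and its call was lost without 13 h replicate 2 (-0.36, adjusted p = 0.304), 0 h replicate 1 (-0.60, adjusted p = 0.0867), 0 h replicate 3 (-0.48, adjusted p = 0.145) or either 24 h library (-0.60, adjusted p = 0.0501; -0.59, adjusted p = 0.0508).

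At elements, 5358 of 35158 rose (15.2%) and 6524 fell (18.6%), so that 33.8% were called and 45.1% of calls were upward. With the scaling of gene bodies used for elements, 5626 rose and 4428 fell, or 56.0% upward. That scaling moved the median over all elements from -0.13 to 0.06, so the shares of the classes are set beside each other, as descriptions that were not tested, and not against 0. Of whole peaks at gene starts 22.5% rose, against 14.7% of those between genes and 17.6% of those inside genes. Whole peaks between genes fell in 36.5% of cases and those inside genes in 37.5%, against 17.7% at starts. With the scaling of gene bodies these shares were 29.9%, 31.2% and 9.87%, and rises then outnumbered falls among single sense strands in genes (14.6% against 8.74%) and, by less, among single strands between genes, of which 12.6% rose. Between genes the median whole peak held 46.6 reads per library and at starts 2047, and the part of this depth in the shares was not tested. Antisense elements inside genes had other shares at each end of the gene: 22.6% rose and 14.4% fell in its first 25%, and 16.4% rose and 19.5% fell in its last 25%.

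**Figure D4:**
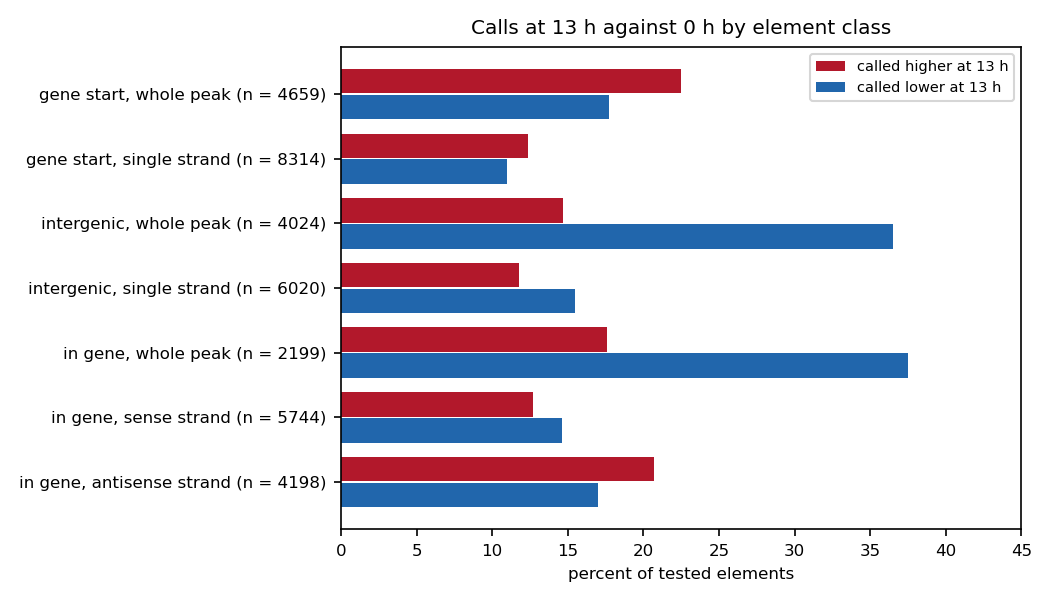
Percent of tested elements called higher (red) and lower (blue) at 13 h, for each class of dREG element, with the number tested beside the class, under the element scaling. Whole peaks between genes and inside genes have the longest blue bars (36.5% and 37.5%), and whole peaks at gene starts are the only whole peaks with a longer red than blue bar (22.5% against 17.7%).

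Start elements and gene bodies were seldom called in opposite directions. Over 6495 start elements of 6373 genes, taken as whole peaks or as the strand that points into the gene, 943 rose together with the body, 828 fell together with it, and 13 were called in opposite directions. Many start elements were not called where the body was called. Among whole peaks these were 311 of the 965 whose body rose and 378 of the 925 whose body fell. Among strands that point into the gene they were 293 of 593 and 388 of 671. Whether gene bodies leave out the start is not given, so element and body may share reads. At Uba1, the main ubiquitin-activating enzyme, the start element (26.4, 27.2 and 30.7 CPM at 0 h and 12.9 and 15.6 CPM at 13 h) fell by 0.98 ± 0.23 while the body rose by 0.72 ± 0.12. At Kdm4b, a histone demethylase, the element (157, 216 and 224 CPM at 0 h and 108 and 119.9 CPM at 13 h) had -0.80 ± 0.25 against 0.58 ± 0.13 in the body. Arl15, a small GTPase, went the other way, with 12.8, 11.1 and 7.20 CPM at 0 h and 15.8 and 22.2 CPM at 13 h at its start (0.87 ± 0.32) against -1.49 ± 0.20 in the body. These 3 were chosen after their values were seen. A gene may have several starts, and no source says whether counting in gene bodies was by strand, so reads of overlapping genes cannot be told apart.

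**Figure D5:**
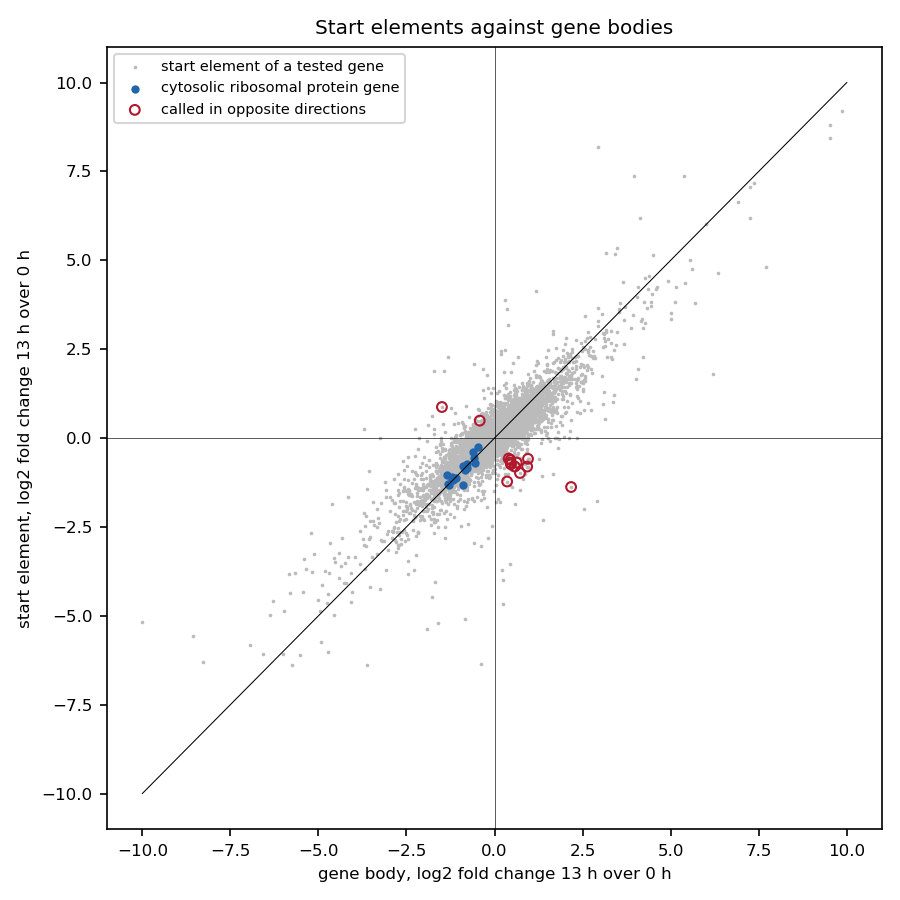
Log2 fold change of start elements (vertical axis) against that of the gene body (horizontal axis), 13 h over 0 h, for 6495 start elements (grey), with cytosolic ribosomal protein genes in blue and the 13 elements called in the opposite direction to the body ringed in red. The black diagonal marks equal change, and the ribosomal protein genes lie along it below 0 on both axes.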

How the data were processed

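PRO-seq libraries of 4 groups (G1E n = 2, G1E-ER4 at 0 h n = 3, at 13 h n = 2, at 24 h n = 2) were used as 2 tables of raw read counts that the authors deposited, 1 over gene bodies (24391 genes) and 1 over dREG elements (42114 elements of 26991 peaks). Reads were aligned with BWA to mm9, per the submitters' processing notes. The percent of the gene at which a peak lies is the authors' value in the deposited peak table. The p-values that the authors deposited in that table, over groups not stated, were not used. How reads were assigned to strands, gene models and several matches is not given in the sources used here.

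Counts were tested with edgeR 4.0.16 (R 4.3.3): TMM scaling, filterByExpr, robust quasi-likelihood fit of 4 group means over 9 libraries with 5 residual degrees of freedom, and Benjamini-Hochberg adjustment over 13825 genes or 35158 elements with a threshold of 0.05. The script was checked on simulated counts. Alternatives were total-count scaling, DESeq2 1.42.0, other count filters, only the 5 libraries, the replicate number as a block, each library left out, and, for elements, the scaling of the gene-body table. Described genes were the 2 with the largest rise and the 2 with the largest fall per list among called genes with a mean of at least 50 reads and groups that do not overlap, ranks 11 to 25 by fold change each way, the 10 genes each way with the largest difference in CPM, and Gata1, Esr1, Klf1, Nfe2, Spi1, Epor, Bcl2l1, Cdkn1b, Cdkn1a, Ccnd2, Ezh2, Xpo7, Bpgm, Slc2a1, Tfeb and Bach1. Only some of the ranked genes are described. Some genes that the list rule names are not reported here. The comparison and the lists were chosen with earlier results of these data known. Of the 100 genes described by the list rule, 81 matched a RefSeq promoter window (GRCm38.p6) by symbol. A motif was held by 16 of these, a count that leaves out windows on a chromosome that was set aside. Counting intervals cover counting error only.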

Additional observations from a re-analysis of the deposited data

How the results depend on the processing

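Leaving out 1 library at a time gave 2121 to 2856 genes up (2782 with all) and 1709 to 2897 down (2888), 3776 to 5919 elements up (5358) and 3849 to 6556 down (6524), 192 to 293 list members called (286) and 250 to 315 linked elements (312). The lowest values came without 13 h replicate 1, and 4058 elements fell without 13 h replicate 2. With at least 50 reads on average 4225 elements fell, of fewer tested. Total-count scaling gave 2356 genes up and 3357 down, moved the median gene from -0.02 to -0.12 and the upward share of calls from 49.1% to 41.2%. With the gene-body scaling 5626 elements rose and 4428 fell. No call of a described gene changed direction. Uncalled genes near 0 did: Esr1 had -0.12 with total counts, -0.000235 with DESeq2, -0.00556 without the filter and -0.50 to 0.58 with a library left out, and Cdkn1a had -0.00485 with total counts and -0.0365 to 0.25 with a library left out. The range was -0.17 to 0.00689 for Ezh2 and -0.56 to 0.14 for Slc2a1. The cause was not tested.

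The replicate numbers give only 2 pairs, so they were not taken to pair the libraries. Deviations from the group means correlated at 0.46 for number 1 and 0.44 for number 2 between 0 h and 13 h. The deviations of the 2 libraries of 13 h mirror each other, so these are not 2 separate results. Between unlike numbers the values were -0.46 and -0.44 by construction. With the replicate number as a block over 9 libraries, 2070 genes rose and 2135 fell, 4857 elements rose and 6019 fell, and 215 list members and 296 linked elements were called. Of the 329 called genes that could be named, 78 were not called in that fit and 2 not in the next. With the block on the 4 libraries of adjacent label numbers, 1 residual degree of freedom left, 3563 genes rose and 3516 fell, 7659 elements rose and 7769 fell, and 360 list members and 341 linked elements were called. Under these 2 block fits Esr1 had -0.20 and -0.14, Cdkn1a -0.0442 and -0.0109, and Ezh2 0.00975 and 0.0366. Nfe2 was called in both (0.66, adjusted p = 0.0443, and 0.69, adjusted p = 0.000470).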
